A study of Mus musculus with 6 samples.

Results

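A set of 134 genes stood at least 4 times higher in EIC_NT, 1 of 6 mouse mammary cell lines, than in each of the other 5 lines. A gene entered the set when it had at least 10 CPM (its count scaled to a common library total) in EIC_NT and at least 4 times the highest CPM of the other 5 lines, on chromosomes 1 to 19 except 14. Of the 23449 genes in the deposited table, 21864 lay on those chromosomes and 8643 of these reached 10 CPM in EIC_NT, so the members were 1.55% of the genes that could have entered. Since the level in EIC_NT against the other lines chose the members, those levels are given below as a description and without a test.

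Messenger RNA was sequenced from cultured lines of female FVB/N mouse mammary origin. The labels give the genotype EIC/WT for the EIC lines and 16IC/WT for the 16IC lines, and all 6 lines were kept in 10 ug/mL doxycycline in medium that held 10% serum, pituitary extract, insulin and EGF. What the names mean is known from the study's background and is not in its labels: doxycycline turns on wild-type ErbB2 (HER2), a receptor tyrosine kinase, in EIC lines and a HER2 form lacking exon 16 in 16IC lines. The lines are EIC_NT, 3 lines named 16IC 1 to 3 and the remaining EIC lines, EIC 1 and EIC 3, numbered in the order of deposit, and values of the 16IC lines are given from 16IC 1 to 16IC 3. The labels do not say what NT stands for, which promoter drives the transgenes or whether a line is a clone. No line without doxycycline was among the samples, and EIC_NT is 1 library, so its contrast with the others has no replicate.

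Mammary epithelium has a luminal layer, which makes keratins of simple epithelia and, in lactation, caseins, and a basal layer, which carries the transcription factor p63 and contractile proteins. Wnt ligands are secreted lipid-modified proteins that bind Frizzled receptors, and they act in mammary development and in mouse mammary tumours. Cells that leave the epithelial state usually lose E-cadherin and EpCAM and gain vimentin, fibronectin and collagens, while interferons switch on guanylate-binding proteins and immunity-related GTPases in most cell types.

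Total counts were 16742109 in EIC_NT and between 15621563 and 17468498 over all lines. Mitochondrial genes took 0.926% of the counts in EIC_NT, against 2.0, 2.22 and 3.39% in 16IC 1 to 3 and 1.5 and 1.38% in EIC 1 and EIC 3, and the part of this in the member levels was not tested. 16IC 3 also stood apart, since 104 genes were high in it alone by the same rule. Of 14 luminal markers, 12 were in the table and 9 reached 1 CPM in EIC_NT, where their summed level was 2706 CPM, against 7343, 6693 and 2053 CPM in the 16IC lines and 3241 and 3028 CPM in EIC 1 and EIC 3. Epcam, which encodes EpCAM, had 1.08 CPM in EIC_NT, against 1229, 1366 and 50.4 CPM in the 16IC lines and 0.458 and 3.53 CPM in EIC 1 and EIC 3. Elf5, a luminal transcription factor, and the basal keratin Krt5 had 0 CPM in EIC_NT. Cdh1, which encodes E-cadherin, had 305 CPM in EIC_NT, against 1116, 1009 and 267 CPM in the 16IC lines and 89.0 and 52.5 CPM in EIC 1 and EIC 3. The simple-epithelial keratins Krt8 and Krt18 had 1339 and 656 CPM in EIC_NT, against 573 to 2810 CPM and 556 to 2046 CPM elsewhere. The 9 mesenchymal markers summed to 9143 CPM in EIC_NT, against 274, 353 and 3938 CPM in the 16IC lines and 4589 and 5021 CPM in EIC 1 and EIC 3. Most of the sum in EIC_NT came from Vim and Fn1, with 4367 and 3647 CPM. Vim, Fn1, Sparc, Snai1, Zeb1 and Zeb2 were highest in EIC_NT. Twist1 had 78.5 CPM there, against 85.3 and 106 CPM in EIC 1 and EIC 3. Cdh2 and Snai2 had 149 and 4.9 CPM in EIC_NT, against 214 and 6.85 CPM in 16IC 3. In EIC_NT the basal markers summed to 21.8 CPM and the fibroblast markers to 12.1 CPM. The basal sums were 17.7, 1.68 and 47.7 CPM in the 16IC lines and 0.572 and 0.521 CPM in EIC 1 and EIC 3. The fibroblast sums were 12.1, 11.6 and 35 CPM in the 16IC lines and 90.2 and 98.4 CPM in EIC 1 and EIC 3. EIC_NT thus carried transcripts of simple-epithelial keratins and E-cadherin next to the highest mesenchymal sum. This mixture was not particular to EIC_NT. 16IC 3, EIC 1 and EIC 3 also held these transcripts, next to mesenchymal sums far above those of 16IC 1 and 16IC 2.

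The 134 members took 1.15% of all counts in EIC_NT, against 0.0540, 0.0556 and 0.0723% in 16IC 1 to 3 and 0.0903 and 0.0939% in EIC 1 and EIC 3. Their median level was 32.7 CPM in EIC_NT, with a range of 10.0 to 970.1 CPM, against medians of 0.128, 0.186 and 0.864 CPM in the 16IC lines and 0.830 and 0.840 CPM in EIC 1 and EIC 3. In these bulk libraries, fewer cells that carry a transcript and less of it per cell cannot be told apart. Corrected for gene length, the members had a median of 9.03 FPKM in EIC_NT (fragments scaled by gene length and library size, as the authors computed them), with a range of 0.664 to 351 FPKM, against a median of 10.8 FPKM over all 8643 genes at 10 CPM or more there. The set thus holds genes of ordinary level in EIC_NT. Protein-coding genes made up 128 of the 134.

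**Figure D1:**
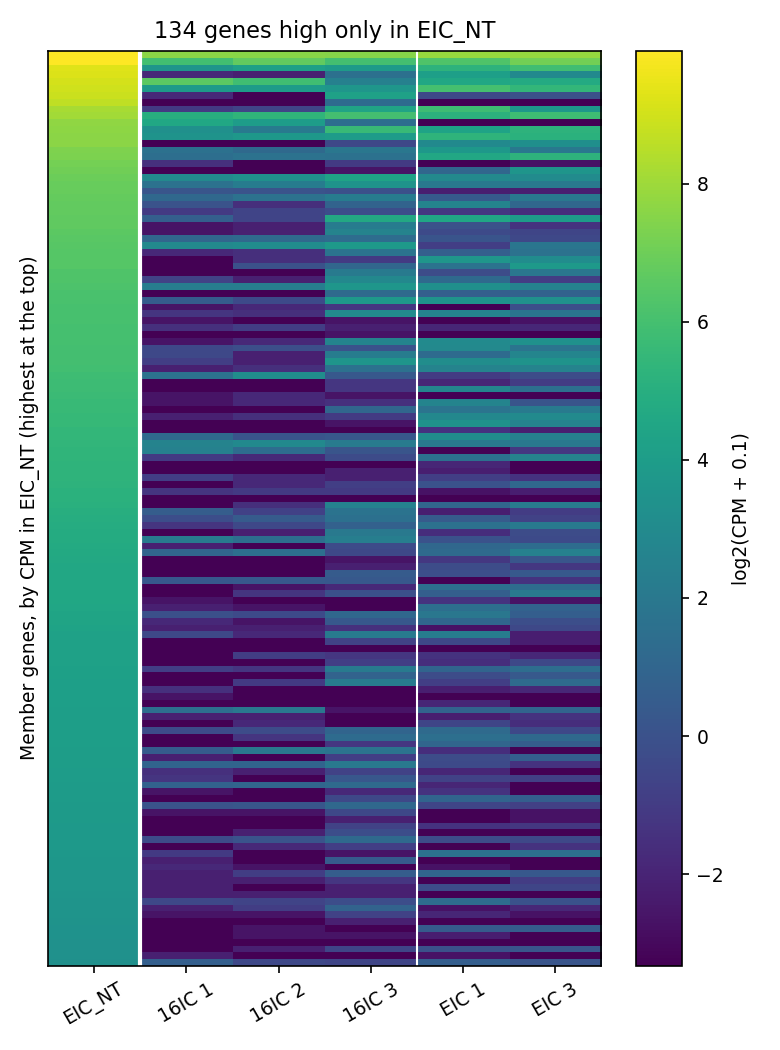
Level of each of the 134 genes high only in EIC_NT (rows, highest CPM in EIC_NT at the top) in the 6 lines (columns), as log2(CPM + 0.1). The column of EIC_NT is bright throughout because the rule chose the rows by it. In the other columns 16IC 1 and 16IC 2 are the darkest, with member medians of 0.128 and 0.186 CPM.

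The ratio of EIC_NT to the highest of the other lines had a median of 10.7. It was below 10 for 63 members, between 10 and 100 for 55, and 100 or more for 16. In 42 members no other line reached 1 CPM, in 66 the highest other line lay between 1 and 10 CPM, and in 26 it was at 10 CPM or more. The first kind were transcripts near or below detection outside EIC_NT, and the last were genes that all or some of the lines used at a lower level. For 3 members, Smoc2, Trbc2 and Ly9, every other line had 0 counts. For these alone the highest other level was set to a floor of 3 counts, which is 0.192 CPM at the smallest library. Members with any count elsewhere kept their own highest other level, even below this floor, as for Wnt6 and Runx3 at 0.064 CPM. The ranges of ratios above thus mix both scales. Against that floor the ratio was 180.1 for Smoc2, 98.3 for Trbc2 and 53.8 for Ly9. The 95% intervals of these ratios against 16IC 1 begin lower, at 146, 79.7 and 43.4. Intervals given here and below for a ratio are exact (Clopper-Pearson) 95% binomial intervals for the counts of both libraries. Like this floor, they cover counting error only.

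**Figure D2:**
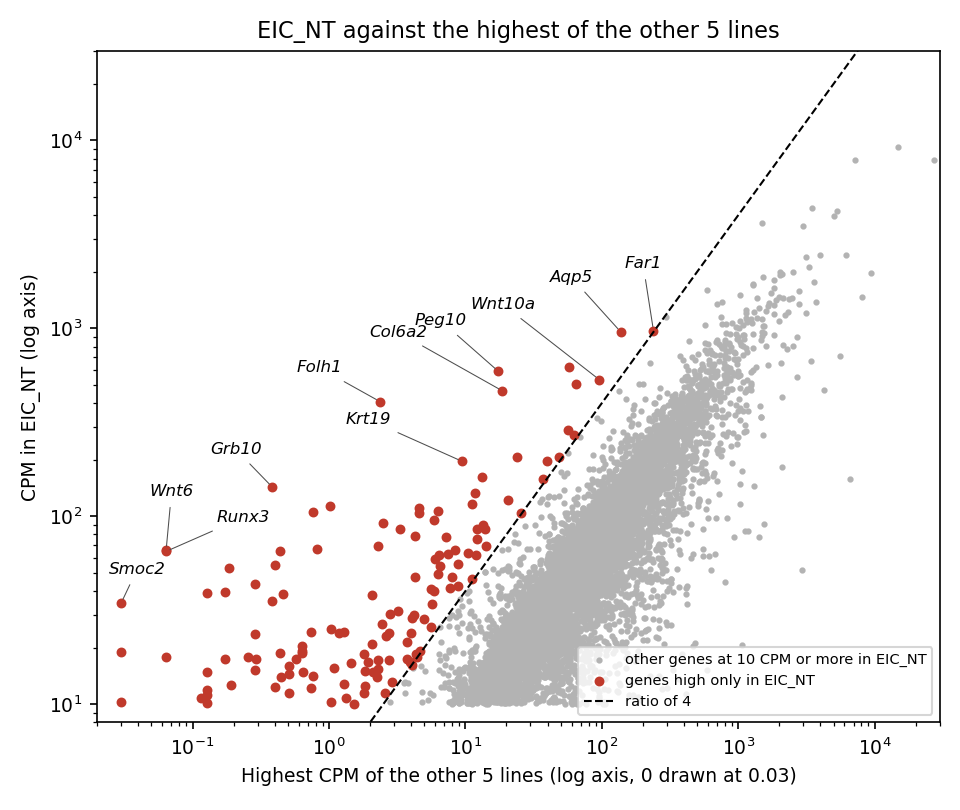
CPM in EIC_NT (vertical, log axis) against the highest CPM of the other 5 lines (horizontal, log axis, 0 drawn at 0.03) for the 8643 genes at 10 CPM or more in EIC_NT, with members in red. Members lie above the dashed line of ratio 4, from Smoc2 at 0 in every other line on the left to Far1 at 239 CPM in its highest other line on the right.

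The threshold cut through a continuous range. Just inside it were Vmn2r79 with a ratio of 4.01, Hspa12a with 4.04, Far1 with 4.05, Kctd17 with 4.08 and F13a1 with 4.17. Just outside were Htr1b with 3.98, Apbb1ip with 3.97, Col6a1 with 3.93, Flt1 with 3.86 and Ghr with 3.84. In all, 42 genes that met the other conditions had a ratio between 3 and 4.

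The same rule applied to each of the other lines in turn found 2 of 8783 genes in 16IC 1 (0.0228%), 0 of 8737 in 16IC 2, 104 of 8710 in 16IC 3 (1.19%), 2 of 8655 in EIC 1 (0.0231%) and 12 of 8473 in EIC 3 (0.142%). A gene that is equally high in a pair of lines is found by the rule in neither. In the other direction, 63 genes were low only in EIC_NT at the same fold. With EIC_NT set aside, the line that was highest among the remaining 5 was 16IC 3 for 51 of the 131 members with any count there (38.9%, against 25.5% of all genes at 10 CPM or more in EIC_NT), EIC 1 for 37 (28.2%, against 19.8%) and EIC 3 for 26 (19.8%, against 16.1%). It was 16IC 1 for 9 (6.87%, against 24.4%) and 16IC 2 for 8 (6.11%, against 14.3%). Members were at 0 counts in 44, 42 and 15 cases in 16IC 1 to 3 and in 21 and 22 cases in EIC 1 and EIC 3. The residual member signal was thus spread over 16IC 3, EIC 1 and EIC 3, the lines that also carried more of the mesenchymal markers, and whether these move together was not tested.

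**Figure D3:**
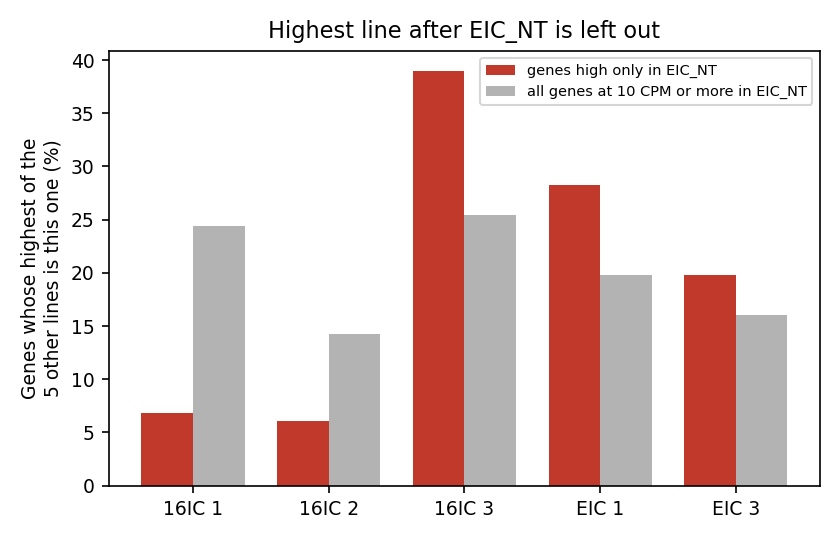
Share of genes (vertical, percent) for which each line (horizontal) was the highest of the 5 lines other than EIC_NT, for the members in red and for all genes at 10 CPM or more in EIC_NT in grey. 16IC 3 led for 38.9% of members, and 16IC 1 and 16IC 2 for 6.87 and 6.11%, each below its grey bar.

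Members of the Wnt pathway were 2 ligands and 1 receptor. Wnt10a had 534 CPM in EIC_NT, against 95.7, 57.4 and 5.44 CPM in the 16IC lines and 23.8 and 27.5 CPM in EIC 1 and EIC 3. Wnt6, the neighbouring ligand gene, had 65.9 CPM in EIC_NT, against 0.0638, 0 and 0.064 CPM in the 16IC lines and 0 and 0.0579 CPM in EIC 1 and EIC 3. The receptor gene Fzd1 had 271 CPM in EIC_NT, against 31.3, 40.7 and 63 CPM in the 16IC lines and 36.9 and 56.8 CPM in EIC 1 and EIC 3. Every line thus held Fzd1 and Wnt10a transcripts, while Wnt6 was near 0 outside EIC_NT, with 1104 counts in EIC_NT and at most 1 count in any other line. The ratio to the highest other line was 5.57 for Wnt10a (95% interval 5.28 to 5.89), 1030.1 for Wnt6 (95% interval 185 to 40724) and 4.3 for Fzd1 (95% interval 4.01 to 4.61), so the size of the Wnt6 ratio is known only within that wide interval. Per length, Wnt10a was the highest of the 3, at 205 FPKM in EIC_NT, against 61.3 FPKM for Fzd1 and 28.6 FPKM for Wnt6.

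Of 17 Wnt pathway genes at 10 CPM or more in EIC_NT, 3 were members (17.6%) and EIC_NT was the highest line for 7 (41.2%), against 1.55 and 25.3% over all genes. The median of log2 EIC_NT over the highest other line was -0.19 for that list and -0.32 for all genes. Notum, a secreted enzyme that inactivates Wnt ligands, had 322 CPM in EIC_NT, against 3.64, 5.9 and 28.7 CPM in the 16IC lines and 27.1 and 99.4 CPM in EIC 1 and EIC 3, below the ratio of 4. The R-spondin receptor gene Lgr4 had 238 CPM in EIC_NT, against 37.5, 38 and 103 CPM in the 16IC lines and 31.5 and 41.8 CPM in EIC 1 and EIC 3. The secreted Wnt antagonist Sfrp1 had 419 CPM in EIC_NT, against 135, 128 and 149.9 CPM in the 16IC lines and 97.3 and 70 CPM in EIC 1 and EIC 3. All 3 were highest in EIC_NT. Axin2, a gene often used as a readout of Wnt signalling, had 18.8 CPM in EIC_NT, against 8.17, 6.96 and 20.4 CPM in the 16IC lines and 4.47 and 7.59 CPM in EIC 1 and EIC 3. Its level in EIC_NT lay within the range of the other lines, while Wnt7b, another ligand gene, had 266 CPM in EIC_NT and up to 809 CPM elsewhere. Other genes of the list were below 10 CPM in EIC_NT and so are not among the 17. Nkd2 had 1.79 CPM in EIC_NT and 64.4 to 185 CPM in the 16IC lines, but at most 1.39 CPM in the other EIC lines. Lgr6 had 4.12 CPM in EIC_NT and 10.9 to 413 CPM elsewhere, and Rnf43 had 0.0597 CPM against 2.58 to 20.4 CPM. The list was thus split. Notum, Lgr4, Sfrp1, Axin2, Wnt7b, Nkd2, Lgr6 and Rnf43 were chosen after their values were seen.

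The promoter of Wnt6 is shown because this gene had the largest ratio among members with a count in another line. It is RefSeq sequence (GRCm38.p6), chr1:74771642-74771941, plus strand, from 250 bases before to 50 bases after the gene's start, with capitals marking GGGCGG on either strand, the letters of the GC box bound by SP1 proteins.
Wnt6: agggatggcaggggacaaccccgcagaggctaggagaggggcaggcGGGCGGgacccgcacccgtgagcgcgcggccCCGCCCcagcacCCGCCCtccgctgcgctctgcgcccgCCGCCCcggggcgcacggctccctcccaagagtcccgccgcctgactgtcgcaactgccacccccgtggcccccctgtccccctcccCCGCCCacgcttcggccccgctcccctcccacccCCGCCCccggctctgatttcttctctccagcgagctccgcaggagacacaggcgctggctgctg
It holds 6 such matches, and 35.7% of all 32851 promoters of the same length in the RefSeq table hold at least 1. Neither TATAAA nor CCAAT, also searched on both strands, is in this window, while 13.6 and 37.4% of all promoters hold them. Wnt10a follows Wnt6 on the same strand. The deposited coordinates place Wnt6 at chr1:74771892-74785322 and Wnt10a at chr1:74791516-74804179, with 6.19 kb between them.

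A second group held the casein genes Csn2 and Csn1s2a and the keratin gene Krt19. Csn2, which encodes beta-casein, had 78.4 CPM in EIC_NT, against 0, 0 and 4.29 CPM in the 16IC lines and 0.744 and 3.59 CPM in EIC 1 and EIC 3. Csn1s2a, another casein gene on chromosome 5, had 14.8 CPM in EIC_NT, against 0, 0 and 0.128 CPM in the 16IC lines and 0 and 0.0579 CPM in EIC 1 and EIC 3. Krt19, a keratin of simple epithelia, had 196 CPM in EIC_NT, against 0, 0 and 0.64 CPM in the 16IC lines and 7.73 and 9.44 CPM in EIC 1 and EIC 3. All 3 were at 0 counts in 16IC 1 and 16IC 2, and Krt19 kept a low level in EIC 1 and EIC 3. The ratio to the highest other line was 18.3 for Csn2 (95% interval 14.3 to 23.7), 115 for Csn1s2a (95% interval 31.6 to 957) and 20.8 for Krt19 (95% interval 17.8 to 24.5). Other milk genes did not share the pattern. Csn3, the kappa-casein gene, had 2.51 CPM in EIC_NT, against 1.91, 14.4 and 386 CPM in the 16IC lines and 27 and 74 CPM in EIC 1 and EIC 3. Csn1s1, also a casein gene, had 1.79 CPM in EIC_NT, against 0, 0 and 15.9 CPM in the 16IC lines and 0 and 2.72 CPM in EIC 1 and EIC 3. Wap was at 0 CPM in EIC_NT. Csn3 and Csn1s1 were thus highest in 16IC 3, and Csn2 in EIC_NT. These genes were chosen after their values were seen. Of 17 luminal and milk genes at 10 CPM or more in EIC_NT, the 3 members were also the only ones for which EIC_NT was the highest line (17.6%, against 25.3% of all genes), and the list's median log2 EIC_NT over the highest other line was -1.28. On the list of keratins and cornified envelope genes, Krt19 was the only member of 6 (16.7%, against 1.55% of all genes), and the median was -1.35. Krt7, Krt8 and Krt18, chosen after their values were seen, had 51.5, 1339 and 656 CPM in EIC_NT, against 2950, 2810 and 2046 CPM in 16IC 1. In 16IC 3 they had 204, 573 and 556 CPM.

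The promoters of both casein members are shown for the letters TTCNNNGAA, in capitals, which STAT proteins bind; STAT5 is known to act on casein genes after prolactin. Both are RefSeq sequence (GRCm38.p6) in the direction of the gene, Csn2 from chr5:87699376-87699675 on the minus strand and Csn1s2a from chr5:87774200-87774499 on the plus strand. The RefSeq starts lie 205 and 117 bases from those of the deposited gene models.
Csn2: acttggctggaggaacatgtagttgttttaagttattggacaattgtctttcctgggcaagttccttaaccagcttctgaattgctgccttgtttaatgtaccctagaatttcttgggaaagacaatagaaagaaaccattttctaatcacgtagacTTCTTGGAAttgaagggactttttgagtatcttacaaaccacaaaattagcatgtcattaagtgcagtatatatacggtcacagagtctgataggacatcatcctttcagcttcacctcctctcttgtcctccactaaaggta
Csn1s2a: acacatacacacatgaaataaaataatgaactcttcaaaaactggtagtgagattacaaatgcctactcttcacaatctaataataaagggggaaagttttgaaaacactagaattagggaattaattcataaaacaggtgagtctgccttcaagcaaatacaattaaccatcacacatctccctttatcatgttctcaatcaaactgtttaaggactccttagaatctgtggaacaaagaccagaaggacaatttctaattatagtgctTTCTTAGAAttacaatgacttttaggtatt
The match begins at position -93 in Csn2 and at +21 in Csn1s2a, and 8.30% of all promoters hold 1 or more on either strand. TATAAA was also searched and is in neither window. The 2 genes lie 74.9 kb apart on opposite strands.

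Trp63, which encodes p63, had 11.4 CPM in EIC_NT, against 0.0638, 0.0621 and 0.512 CPM in the 16IC lines and 0.172 and 0.0579 CPM in EIC 1 and EIC 3. It was near 0 in every line but EIC_NT, and its level there was low, at 1.29 FPKM. The ratio was 22.3 (95% interval 11.1 to 52.3). Of 7 basal markers, 4 were at 0 CPM in EIC_NT, namely Krt5, Krt17, Acta2 and Myh11, and Krt14 had 0.119 CPM, so p63 transcripts were not accompanied by the basal keratins. Oxtr, the oxytocin receptor of basal cells, had 10.3 CPM in EIC_NT, against 0.319, 0.0621 and 45.8 CPM in the 16IC lines and 0 and 0.29 CPM in EIC 1 and EIC 3.

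Genes of the extracellular matrix were 6 of the 31 genes at 10 CPM or more in EIC_NT on a list of fibroblast and matrix genes (19.4%, against 1.55% of all genes). Col6a2, a chain of the microfibrillar collagen VI, had 465 CPM in EIC_NT, against 0.191, 0 and 18.7 CPM in the 16IC lines and 0.63 and 0.869 CPM in EIC 1 and EIC 3. Its partner chain Col6a1, just outside the rule at a ratio of 3.93, had 1151 CPM in EIC_NT, against 0.255, 0.684 and 293 CPM in the 16IC lines and 10.2 and 37.2 CPM in EIC 1 and EIC 3. Both chains were near 0 in 16IC 1 and 16IC 2 and intermediate in 16IC 3, and Col6a2 was below 1 CPM in EIC 1 and EIC 3 as well. A further collagen VI chain, Col6a3, had 124 CPM in EIC_NT and was highest in 16IC 3, at 140 CPM. It had 0 and 0.684 CPM in 16IC 1 and 16IC 2 and 22.3 and 22 CPM in EIC 1 and EIC 3. Col5a2, a chain of the fibrillar collagen V, had 67 CPM in EIC_NT, against 0.0638, 0.186 and 0.32 CPM in the 16IC lines and 0 and 0.811 CPM in EIC 1 and EIC 3. Its partner Col5a1 had 273 CPM in EIC_NT, against 0.766, 7.02 and 72.5 CPM in the 16IC lines and 204 and 249.5 CPM in EIC 1 and EIC 3, so in EIC 1 and EIC 3 the Col5a1 chain was present at levels near that of EIC_NT while Col5a2 was not. Col6a3 and Col5a1 were chosen after their values were seen.

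Lox, the enzyme that crosslinks collagen and elastin, had 208 CPM in EIC_NT, against 23.9, 16.2 and 2.62 CPM in the 16IC lines and 0 CPM in both EIC 1 and EIC 3. It was the one member of the matrix list with its next highest levels in 16IC 1 and 16IC 2 and none in EIC 1 and EIC 3. Smoc2, a secreted calcium-binding matrix protein, had 34.6 CPM (579 counts) in EIC_NT and 0 counts in the other 5 lines. Col15a1, a basement-membrane-zone collagen, and Col23a1, a transmembrane collagen, had 17.3 and 49.3 CPM in EIC_NT, against at most 0.572 and 6.3 CPM elsewhere. Pcolce, which enhances the cleavage of procollagen and was not on the list, had 505 CPM in EIC_NT, against 14.6, 15.3 and 12.2 CPM in the 16IC lines and 65.1 and 44.2 CPM in EIC 1 and EIC 3. Adamts2, a procollagen N-proteinase, had 15.4 CPM in EIC_NT and at most 2.3 CPM elsewhere, and the membrane metalloproteinase Mmp16 had 21.4 CPM, against at most 3.72 CPM. EIC_NT was the highest line for 15 of the 31 matrix genes (48.4%, against 25.3% of all genes), and the list's median log2 EIC_NT over the highest other line was -0.18. Defining fibroblast genes had no more than 4.24 CPM in EIC_NT. Pdgfra had 1.97 CPM in EIC_NT, against 4.28, 4.29 and 15.2 CPM in the 16IC lines and 88.1 and 93.1 CPM in EIC 1 and EIC 3. Col1a2 had 3.82 CPM in EIC_NT, against 0.128, 0.0621 and 0 CPM in the 16IC lines and 0 CPM in both EIC 1 and EIC 3. Pdgfrb had 4.24 CPM in EIC_NT, against 0.191, 0 and 5.63 CPM in the 16IC lines and 0.744 and 0.521 CPM in EIC 1 and EIC 3. Pdgfra was thus lowest in EIC_NT and Col1a2 highest there, while Pdgfrb was highest in 16IC 3. Col1a1 and Dcn had 1.08 and 0.239 CPM in EIC_NT, against at most 4.93 and 1.74 CPM elsewhere.

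**Figure D4:**
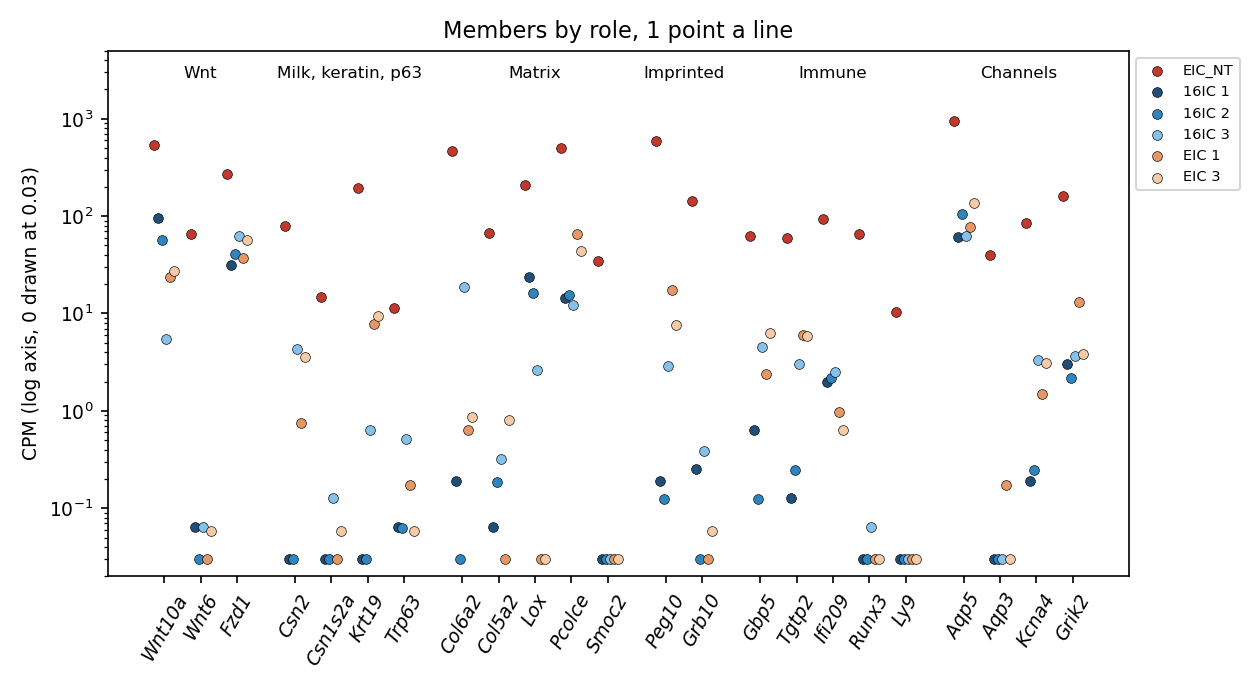
CPM (vertical, log axis, 0 drawn at 0.03) of 23 members grouped by role, 1 point a line, with EIC_NT in red, 16IC lines in blue and the other EIC lines in orange. The red point is the top one of each gene by choice. The other points spread from 0 in all 5 lines for Smoc2 and Ly9 to between 60.4 and 137 CPM for Aqp5.

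Imprinted genes gave 2 members of 17 at 10 CPM or more in EIC_NT (11.8%, against 1.55% of all genes). EIC_NT was the highest line for 5 of the 17 (29.4%, near the 25.3% of all genes). Peg10, a paternally expressed gene derived from a retrotransposon, had 591 CPM in EIC_NT, against 0.191, 0.124 and 2.88 CPM in the 16IC lines and 17.4 and 7.7 CPM in EIC 1 and EIC 3. Grb10, an imprinted adaptor of the insulin receptor, had 143 CPM in EIC_NT, against 0.255, 0 and 0.384 CPM in the 16IC lines and 0 and 0.0579 CPM in EIC 1 and EIC 3. Both were near 0 in 16IC 1 and 16IC 2, and Peg10 alone was clearly above that in EIC 1 and EIC 3. The ratio was 34 for Peg10 (95% interval 30.3 to 38.2) and 372 for Grb10 (95% interval 171 to 1016). Sgce, the imprinted neighbour of Peg10, had 87.6 CPM in EIC_NT, against 0.0638, 0.435 and 0.384 CPM in the 16IC lines and 57.2 and 45.7 CPM in EIC 1 and EIC 3, so in EIC 1 and EIC 3 it was closer to EIC_NT than Peg10 was. Igf2r, imprinted with the opposite parental origin to Peg10, had 283 CPM in EIC_NT, the lowest of the 6 lines. Sgce and Igf2r were chosen after their values were seen.

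The member on the list of interferon-stimulated genes was Gbp5, a guanylate-binding protein, which had 62.6 CPM in EIC_NT, against 0.638, 0.124 and 4.54 CPM in the 16IC lines and 2.4 and 6.37 CPM in EIC 1 and EIC 3. Tgtp2, an immunity-related GTPase outside that list, had 59.4 CPM in EIC_NT, against 0.128, 0.249 and 3.01 CPM in the 16IC lines and 5.95 and 5.91 CPM in EIC 1 and EIC 3. Ifi209, of the DNA-sensing IFI200 family, had 92.6 CPM in EIC_NT, against 1.98, 2.18 and 2.5 CPM in the 16IC lines and 0.973 and 0.637 CPM in EIC 1 and EIC 3. Both Gbp5 and Tgtp2 were higher in 16IC 3, EIC 1 and EIC 3 than in 16IC 1 and 16IC 2, while Ifi209 was low in all 5. Gsdmd, the pore-forming protein of pyroptosis, had 62 CPM in EIC_NT, against 0.447, 0.124 and 11.9 CPM in the 16IC lines and 8.82 and 10.9 CPM in EIC 1 and EIC 3. Nos2, the inducible nitric oxide synthase, had 18.5 CPM in EIC_NT and at most 1.79 CPM elsewhere, and Slfn5 had 24.1 CPM against at most 1.28 CPM. Ifi209, Gsdmd, Nos2 and Slfn5 were chosen after their values were seen. Tgtp2 and Ifi209 have close relatives in the mouse genome, so their counts are uncertain where reads fit more than 1 copy.

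On the list of interferon-stimulated genes, 1 of 44 at 10 CPM or more in EIC_NT was a member (2.27%, against 1.55%), EIC_NT was the highest line for 15 (34.1%, against 25.3%), and the median log2 EIC_NT over the highest other line was -0.50, against -0.32 for all genes. The list was split in what it did. Iigp1, another immunity-related GTPase, had 462 CPM in EIC_NT, against 5.94, 3.6 and 77.8 CPM in the 16IC lines and 132 and 134 CPM in EIC 1 and EIC 3. Gbp2 had 346 CPM in EIC_NT, against 25.5, 19.9 and 169 CPM in the 16IC lines and 127 and 123 CPM in EIC 1 and EIC 3. Oasl1, an oligoadenylate synthetase-like gene, had 18.5 CPM in EIC_NT, against 24.2, 21 and 37.4 CPM in the 16IC lines and 175 and 388 CPM in EIC 1 and EIC 3. Iigp1 and Gbp2 were thus highest in EIC_NT, and Oasl1 was lowest there. These 3 genes were chosen after their values were seen. Of 21 genes of MHC and antigen processing, none was a member (1.55% of all genes were), and EIC_NT was the highest line for 15 (71.4%, against 25.3%).

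The promoter of Tgtp2 is shown with 2 motifs in capitals. One is the interferon-stimulated response element, searched as GAAA, any 2 bases and GAAA again, and the other is the gamma-activated site, TTCNNNGAA. It is RefSeq sequence (GRCm38.p6) from chr11:49064163-49064462 on the minus strand.
Tgtp2: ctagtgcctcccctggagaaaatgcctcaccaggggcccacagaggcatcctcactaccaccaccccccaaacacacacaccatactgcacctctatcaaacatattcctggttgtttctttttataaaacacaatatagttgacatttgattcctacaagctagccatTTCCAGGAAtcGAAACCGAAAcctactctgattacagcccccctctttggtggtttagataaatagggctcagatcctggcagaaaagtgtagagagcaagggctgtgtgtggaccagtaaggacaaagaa
GAAACCGAAA begins at position -70 and TTCCAGGAA at -81, without overlap. Over all promoters, 3.44% hold the first motif and 8.30% the second on either strand.

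On the list of leukocyte genes, 4 of 25 reached 10 CPM in EIC_NT and 0 were members, against 1.55% of all genes. Some members outside the list, all but F13a1 chosen after their values were seen, are known from blood cells. Ly9, of the SLAM receptor family, had 10.3 CPM (173 counts) in EIC_NT and Trbc2, a constant segment of the T-cell receptor beta chain, 18.9 CPM (316 counts), and both had 0 counts in the other 5 lines. Ly9 overlaps Cd244a on the opposite strand. The following members were detected in more than 1 line. Srgn, a proteoglycan of secretory granules, had 47.7 CPM in EIC_NT, against 0, 0 and 1.98 CPM in the 16IC lines and 3.38 and 4.29 CPM in EIC 1 and EIC 3. Cyba, a subunit of the phagocyte oxidase, had 54.1 CPM in EIC_NT, against 0, 0 and 0.32 CPM in the 16IC lines and 6.47 and 2.78 CPM in EIC 1 and EIC 3. F13a1, the A chain of coagulation factor XIII, had 46.4 CPM in EIC_NT, against 0, 0 and 0.064 CPM in the 16IC lines and 11.1 and 5.73 CPM in EIC 1 and EIC 3. EIC 1 and EIC 3 held some of each of these 3. Ptpn22, a phosphatase of lymphocytes, had 24 CPM in EIC_NT and at most 4.0 CPM elsewhere. Defining leukocyte markers were absent or nearly so in EIC_NT: Ptprc, the pan-leukocyte CD45 gene, had 0.0597 CPM, and Itgam and Lyz2 had 0 CPM. Of 9 leukocyte markers, 6 were in the table and 2 reached 1 CPM in EIC_NT, Cd14 and Cd68. The sum over the list was 219 CPM in EIC_NT, against 93.2, 95 and 366 CPM in the 16IC lines and 74.9 and 117 CPM in EIC 1 and EIC 3, so it was higher in 16IC 3 than in EIC_NT.

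The set held 8 transcription factors (5.97%, against 6.27% of all genes at 10 CPM or more in EIC_NT). Runx3, a Runt-domain factor of lymphocytes and epithelia, had 65 CPM in EIC_NT, against 0, 0 and 0.064 CPM in the 16IC lines and 0 CPM in both EIC 1 and EIC 3, which is 1089 counts in EIC_NT and 1 count in all other lines together. Eomes, a T-box factor of early embryo and lymphocytes, had 47.4 CPM in EIC_NT, against 0.128, 0.249 and 0.384 CPM in the 16IC lines and 7.21 and 7.93 CPM in EIC 1 and EIC 3. Nr5a2, a nuclear receptor of liver and embryo, had 25.3 CPM in EIC_NT, against 0, 0 and 0.064 CPM in the 16IC lines and 0.343 and 1.04 CPM in EIC 1 and EIC 3. Eomes was thus the one of these 3 with a clear level in EIC 1 and EIC 3. The mesenchymal factors Prrx2 and Twist2 had 17.8 and 15.1 CPM in EIC_NT, against at most 0.255 and 1.83 CPM elsewhere, and the homeobox genes Dlx1 and Hopx had 10.2 and 11.5 CPM, against at most 1.04 and 1.79 CPM. Trp63 is the eighth. Hopx was chosen after its values were seen.

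Channels had the highest share of members of the 40 lists. They gave 10 of 47 genes (21.3%, against 1.55%), EIC_NT was the highest line for 17 (36.2%, against 25.3%), and the median log2 EIC_NT over the highest other line was -0.32, as over all genes. Aqp5, a water channel of secretory glands, had 959 CPM in EIC_NT, against 60.4, 106 and 62.9 CPM in the 16IC lines and 76.5 and 137 CPM in EIC 1 and EIC 3, and its 351 FPKM was the highest of all members. Aqp3, a channel for water and glycerol, had 39.6 CPM in EIC_NT, against 0 CPM in each 16IC line and 0.172 and 0 CPM in EIC 1 and EIC 3. Grik2, a kainate receptor subunit, had 162 CPM in EIC_NT, against 3.0, 2.18 and 3.65 CPM in the 16IC lines and 13.2 and 3.82 CPM in EIC 1 and EIC 3. Grik2 was thus detected in every line and Aqp3 hardly outside EIC_NT. Kcna4, a voltage-gated potassium channel, had 86 CPM in EIC_NT, against 0.191, 0.249 and 3.33 CPM in the 16IC lines and 1.49 and 3.13 CPM in EIC 1 and EIC 3. Aqp3 had no more than 3 counts in any line but EIC_NT. The potassium channels Kcnf1 and Kcnj3, the calcium channel subunits Cacna1c and Cacnb2 and the pannexin Panx1 had between 11.2 and 85.3 CPM in EIC_NT, and all but Kcnf1 lie outside the naming rule.

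Carriers of small molecules gave 3 members of 157 solute carrier and ABC genes (1.91%, near the 1.55% of all genes). Abcb1a, a drug efflux pump of the P-glycoprotein family, had 157 CPM in EIC_NT, against 2.62, 3.05 and 2.94 CPM in the 16IC lines and 24.4 and 37.2 CPM in EIC 1 and EIC 3. The glucose transporter Slc2a3 and the glutamate transporter Slc1a3 had 20.4 and 14.4 CPM in EIC_NT, against at most 0.637 and 0.512 CPM elsewhere. Among G protein coupled receptors 3 of 35 were members (8.57%, against 1.55% of all genes). Adra2a, an adrenergic receptor, had 113 CPM in EIC_NT, against 1.02, 0.932 and 0.832 CPM in the 16IC lines and 0.114 and 0.116 CPM in EIC 1 and EIC 3. S1pr1, a receptor for sphingosine 1-phosphate, had 19.1 CPM in EIC_NT and at most 0.63 CPM elsewhere.

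Guidance and contact molecules were also found. Sema3a, a secreted repellent of axons and endothelial cells, had 626 CPM in EIC_NT, against 12.1, 18 and 14.9 CPM in the 16IC lines and 37.6 and 57.2 CPM in EIC 1 and EIC 3. Sema7a, a membrane-anchored semaphorin, had 90.1 CPM in EIC_NT, against 7.34, 8.58 and 13.5 CPM in the 16IC lines and 0.458 and 3.59 CPM in EIC 1 and EIC 3. Robo1, a receptor for Slit proteins, had 23.2 CPM in EIC_NT and at most 2.63 CPM elsewhere. These were 3 of 31 axon guidance genes (9.68%, against 1.55% of all genes). Jag2, a Notch ligand, had 111 CPM in EIC_NT, against 2.11, 3.11 and 4.54 CPM in the 16IC lines and 1.26 and 3.82 CPM in EIC 1 and EIC 3. It was the member among 15 Notch and Hedgehog genes (6.67%, against 1.55% of all genes). Nrn1, a surface protein that promotes neurite growth, had 133 CPM in EIC_NT, against 0, 0 and 0.064 CPM in the 16IC lines and 1.95 and 11.8 CPM in EIC 1 and EIC 3. Sema7a differed from Sema3a and Nrn1 in that its higher levels outside EIC_NT were in 16IC lines.

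Enzymes and other secreted proteins completed the highest members. Folh1, a glutamate carboxypeptidase also known as prostate-specific membrane antigen, had 408 CPM in EIC_NT, against 0, 0 and 2.37 CPM in the 16IC lines and 0 CPM in both EIC 1 and EIC 3, with a ratio of 172 (95% interval 125 to 245). Far1, an enzyme of ether lipid synthesis, had 970.1 CPM in EIC_NT, against 194, 187 and 181 CPM in the 16IC lines and 239 and 227 CPM in EIC 1 and EIC 3, and was the member with the most counts. Folh1 was close to absent outside EIC_NT, whereas Far1 was a gene of all lines at the edge of the rule. Il1rn, the secreted interleukin 1 receptor antagonist, had 75.6 CPM in EIC_NT, against 4.72, 4.85 and 12.2 CPM in the 16IC lines and 9.56 and 5.79 CPM in EIC 1 and EIC 3. Chst13, a chondroitin sulfotransferase, had 107 CPM in EIC_NT, against 0.957, 0.249 and 1.79 CPM in the 16IC lines and 6.3 and 2.03 CPM in EIC 1 and EIC 3. Both were detected in every line. In all, 49 members stood on at least 1 of 40 lists, and 22 lists had a member.

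Members lay on every chromosome that the rule allowed, from 0.226% of the genes at 10 CPM or more on chromosome 17, where Smoc2 was the member, to 2.37% on chromosome 13. There were 8 pairs of members within 100 kb. Besides Wnt6 with Wnt10a and Csn2 with Csn1s2a, they were Serpinb9e with Serpinb9f, Syt6 with Olfml3, Galnt12 with Col15a1, and 3 pairs with predicted genes, 9930111J21Rik2 with Tgtp2, Gm8332 with Gm5662 and Gm43719 with Sema3a. Flanking genes were the nearest non-members on each side with at least 10 CPM in any line, at any distance, as far as 4122 kb for Gm43719. Among these 239 genes EIC_NT was the highest line for 82 (34.3%), against 20.6% of all 9941 such non-members, flanking genes included. It was at least 2 times the next line for 13 (5.44%), against 1.31%. The 13 include relatives or partners of the member beside them, such as Serpinb9, Tgtp1, Klk1b27 and Col6a1. All but Col6a1 were chosen after their values were seen. Whether closeness on the chromosome plays a part was not tested. Of the 134 members, 44 overlap another gene on the opposite strand in GENCODE M21, and the sources used here do not give the strandedness of the counts, so reads of such pairs cannot be told apart. These include Wnt6, Runx3, Smoc2 and Eomes, each with an antisense gene.

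Serpinb9e and Serpinb9f, relatives of the granzyme B inhibitor Serpinb9 in a mouse gene cluster 63.2 kb apart, are shown because their promoters are almost the same. Serpinb9e had 23.7 CPM in EIC_NT, against 0.0638, 0 and 0 CPM in the 16IC lines and 0.286 and 0.0579 CPM in EIC 1 and EIC 3. Serpinb9f had 15.3 CPM in EIC_NT, against 0.0638, 0 and 0.192 CPM in the 16IC lines and 0.286 and 0 CPM in EIC 1 and EIC 3. The sequences are from RefSeq (GRCm38.p6), chr13:33249358-33249657 and chr13:33323827-33324126, both on the plus strand, and hold neither of the motifs searched in Tgtp2, nor the TATA box letters TATAAA, on either strand, so no base is in capitals.
Serpinb9e: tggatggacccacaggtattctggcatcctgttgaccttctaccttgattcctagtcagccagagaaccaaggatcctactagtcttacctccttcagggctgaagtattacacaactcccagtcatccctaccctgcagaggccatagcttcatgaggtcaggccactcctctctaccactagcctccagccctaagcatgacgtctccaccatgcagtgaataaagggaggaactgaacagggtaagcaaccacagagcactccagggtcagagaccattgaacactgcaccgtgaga
Serpinb9f: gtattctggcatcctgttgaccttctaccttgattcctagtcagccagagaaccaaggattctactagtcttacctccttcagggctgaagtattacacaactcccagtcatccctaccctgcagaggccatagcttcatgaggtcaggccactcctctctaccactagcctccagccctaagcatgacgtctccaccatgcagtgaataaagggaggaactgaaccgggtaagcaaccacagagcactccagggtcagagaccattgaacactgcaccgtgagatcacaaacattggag
Shifted by 15 bases, they differ at 2 of 285 bases (99.3% identical). With copies this close, the split of reads between the genes is uncertain, as it is for Akr1c13, Ly6c1 and, chosen after their values were seen, Klk1b21, Prl2c5 and the predicted genes on chromosome 12. A promoter was in the table for 97 of the 134 members (72.4%), under the 80% needed, so no comparison of promoter content over the set was made.

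The study's comparison of 16IC with EIC can be made without the line that chose the members. In that fit, 16IC 1 to 3 were set against EIC 1 and EIC 3 with edgeR's quasi-likelihood test over 14391 genes, of which 87 were members, and 282 genes passed a Benjamini-Hochberg adjusted p of 0.05 (1.96%). Nothing in the labels says that the lines came from separate animals, so p-values measure only the spread between these samples. Of the 87 members tested, 4 passed, all lower in 16IC (background 1.09% lower in 16IC and 0.869% higher). The members left untested had too few counts in these 5 lines. Those tested had a median log2 fold change of -1.09, against 0.05 over all genes, with 60 negative and 27 positive. An unadjusted p under 0.05 was reached by 32 of them, 9 higher and 23 lower in 16IC, against 22.7% of all genes, 12.2% higher and 10.5% lower. The filter keeps a gene with counts in as many lines as the smaller group has, so members high in EIC 1 and EIC 3 passed it more easily than members high in 16IC 3 alone, and nothing is read from these counts and medians over the tested members. With no filter on low counts, 131 members entered, with a median of -0.76 (0.12 over all genes), 82 negative and 49 positive.

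Abcb1a was lower in 16IC, with a log2 fold change (16IC over EIC) of -3.52 (SE 0.32, edgeR adjusted p = 0.0346), with 2.62 to 3.05 CPM in the 16IC lines, against 24.4 and 37.2 CPM in EIC 1 and EIC 3. Pcolce was also lower in 16IC, with a log2 fold change of -2.04 (SE 0.23, edgeR adjusted p = 0.0411). Eomes was lower in 16IC, with a log2 fold change of -4.94 (SE 0.58, edgeR adjusted p = 0.0427). F13a1 (edgeR adjusted p = 0.0427) had 1 count over the 16IC lines, against 194 and 99 counts in EIC 1 and EIC 3, and is given without a fold. Eomes (2, 4 and 6 counts in the 16IC lines) and F13a1 passed the filter on low counts through EIC 1 and EIC 3, where they are high, and with a filter of 1 CPM in 3 libraries neither was tested. Without 16IC 1 or 16IC 2, no gene of the whole table passed in edgeR. The adjusted p of the 4 in these edgeR fits lay between 0.119 and 0.154. Without EIC 1, EIC 3, 16IC 1 or 16IC 2, log2 fold changes were -3.13 to -3.86 for Abcb1a, -1.83 to -2.26 for Pcolce and -4.60 to -5.09 for Eomes. Leaving out EIC 1 or EIC 3 leaves a single EIC line, whose spread is taken to be that of the 16IC lines. For those fits only fold changes are given here. Without 16IC 3 all 4 passed, with adjusted p from 0.00148 to 0.00290, and so did 57 of 81 members tested (49 lower in 16IC) next to 4092 of 14048 genes. DESeq2 called 27 of 95 members on the same 5 lines, 8 higher and 19 lower in 16IC, next to 14.7% of all genes, and limma-voom called 6 of 87, next to 2.31%.

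Over all members, both EIC 1 and EIC 3 were above every 16IC line for 40 (29.9%, against 19.1% of all genes at 10 CPM or more in EIC_NT), and every 16IC line was above both for 19 (14.2%, against 22.9%). Lox was of the second kind and Wnt10a of neither. For Wnt10a the edgeR fit without EIC_NT gave a log2 fold change of 0.93 (SE 1.06, adjusted p = 0.656). Lox, with 0 counts in EIC 1 and EIC 3, is given without a fold, and its adjusted p in that edgeR fit was 0.0815. A p that misses the threshold does not show that the groups were alike.

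In the lists, the same fit called 2 higher and 0 lower in 16IC of 33 Wnt pathway genes, 3 higher and 0 lower of 31 luminal and milk genes, 1 higher and 3 lower of 65 fibroblast and matrix genes, and 0 higher and 3 lower of 52 interferon-stimulated genes. It called 1 higher and 2 lower of 30 imprinted genes and 1 higher and 0 lower of 107 channel genes. Over all genes, 0.869% were called higher and 1.09% lower in 16IC. Median log2 fold changes were 0.93 for the Wnt list, 1.86 for luminal and milk genes, 0.63 for matrix genes, -1.07 for interferon-stimulated genes, 0.04 for imprinted genes and 0.44 for channels, against 0.05 over all genes.

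With all 6 lines in the edgeR fit, where the rule used the same values, 335 of 13698 genes passed (2.45%), and of 87 members tested 3 did, Abcb1a, Eomes and F13a1, all lower in 16IC, against a background of 1.2% lower in 16IC. With the same 6 lines DESeq2 called 34 of the 52 members to which it gave an adjusted p, next to 12.8% of all genes, and limma-voom called 0 of 87, next to 2.1%. Nothing is read from these counts. In the authors' deposited table, 34 members (25.4%) had an adjusted p under 0.05, each lower in 16IC, next to 8.63% of all genes in either direction. EIC_NT is in the EIC group of that comparison, so the direction follows from the rule and nothing is read from this count either. No p-value was given for 82 of the 134 members (61.2%), with their adjusted p printed as 1, against 2.06% of all 8643 genes at 10 CPM or more in EIC_NT. An adjusted p of 1 in the authors' deposited table is thus, for most members, the mark of a gene that was given no p-value.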

How the data were processed

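The deposited table holds, for 6 libraries, the authors' read count per gene as whole numbers, a normalised signal that the authors made with size factors, FPKM computed by the authors, and the authors' log2 fold change, p-value and adjusted p-value for 16IC against EIC. Per the submitters' processing notes, limma, edgeR, HTSeq, STAR and Trimmomatic were named as tools and GRCm38 and mm10 as builds; the sources used here give no versions, roles, settings or strandedness. The normalised signal was not used for any result.

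From the counts, CPM was computed on column totals (15621563 to 17468498) and members were found by the stated rule. The members and the 40 gene lists were chosen with earlier results of these data known, so no test was made of the contrast that chose them. 16IC was compared with EIC, with and without EIC_NT, on the whole table with edgeR 4.0.16 (R 4.3.3), using filterByExpr by group with a minimum count of 10, TMM factors and Benjamini-Hochberg adjustment. The SE printed with a log2 fold change is its absolute value divided by the square root of the test's F statistic. This was tested on simulated counts first. Alternatives were other scalings and filters, DESeq2 1.42.0, limma-voom (limma 3.58.1), leaving out each line, and other limits in the rule. Genes were named by 1 rule, leaving out predicted models: the 12 members with the highest FPKM in EIC_NT, the 12 with the highest ratio, up to 4 of each list, every member called without EIC_NT, the 5 nearest the ratio of 4 on each side, and neighbours within 100 kb. A gene outside it is marked as chosen after its values were seen. Coordinates are those of the deposited table, and 127 of 134 members had the same start and end in GENCODE M21 (GRCm38).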

Additional observations from a re-analysis of the deposited data

How the results depend on the processing

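The set numbered 134 genes, and 134 under TMM-scaled CPM or CPM scaled by DESeq2 size factors, 132 of them shared in either case. With the authors' FPKM in place of CPM it numbered 64, of which 62 were shared; with a ratio of at least 8 it numbered 84, and with at least 20 CPM it numbered 85. A ratio of 3, a limit of 5 CPM and keeping chromosome 14 and the sex chromosomes gave 176, 170 and 142. Leaving out 1 other line gave 134 to 181 genes, the most without 16IC 3. Members called in 16IC against EIC without EIC_NT numbered 4, but 2 with a filter of 1 CPM in 3 libraries and 27 with DESeq2, and 0 to 57 when 1 line was left out, with 57 without 16IC 3, where 4092 of 14048 genes were called, and 0 in the other fits, where 0 of 13963 to 15429 genes were. With all 6 lines the count was 3 of 87 members tested, but 34 of 52 with DESeq2 and 0 of 87 with limma-voom. It was 0 to 8 when 1 line was left out. Without 16IC 3 it was 8 of 94 members, next to 1912 of 14262 genes. The cause of these differences was not tested. Over 65 named members and 7 alternatives to the CPM scaling and the lines compared, 4 of 455 ratios were at or below 4 and 43 lay outside the counting interval of the ratio. No paired analysis was possible because the replicate numbers only follow the order of deposit and no label pairs lines. Depth limits the ratios of members with few counts outside EIC_NT, whose intervals are wide, and 1 library stands for EIC_NT throughout.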
